A study of Mus musculus with 8 samples.

Results

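The anterior and central genes of the HoxA and HoxD clusters were examined in mouse embryonic fibroblasts (MEFs), cells grown out of embryos, with and without Lats2. The set holds 9 of the 27745 gene names on the array and was taken by gene name, at every gene probe that carries one of these names, which gave 13 of 41174 gene probes. The HoxA genes were Hoxa2, Hoxa3, Hoxa4, Hoxa5 and Hoxa7, 5 genes with 7 probes, and the HoxD genes were Hoxd3, Hoxd4, Hoxd8 and Hoxd9, 4 genes with 6 probes. Probes were taken by name and not by signal.

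RNA of Lats2-/- MEFs was set against RNA of Lats2+/+ MEFs, all of strain C57BL/6J, untreated and grown in DMEM with fetal bovine serum, in 3 litters numbered 112, 116 and 121. Each litter gave 1 extract of each genotype, labelled with clone names 112-C and 112-K, 116-D and 116-H, and 121-E and 121-C (Lats2-/- first), so a genotype in a litter is 1 culture and the litter is the replicate. Lats2 encodes a kinase of the Hippo pathway, and the comparison asked whether genes under Polycomb repressive complex 2 (PRC2), among them Hox genes, differ in level once Lats2 is gone. The construct of the deletion and the age of the embryos were not given in the sources used here. The source label spells the gene LAT2, while the genotype label spells it Lats2.

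Both extracts of a litter were hybridised together to 2-colour Agilent arrays whose dyes were swapped between arrays, with 2 arrays each for litters 112 and 116 and 4 for litter 121. Litters 112 and 116 lay on 1 slide and litter 121 on another, so litter 121 and its slide cannot be told apart. Of the 4 Lats2 probes, A_52_P425064 had log2 ratios (Lats2-/- over Lats2+/+) of -1.33, -1.05 and -0.56 in litters 112, 116 and 121. The other 3 probes lay between -0.70 and -0.18 in litters 112 and 116 but at 0.80, 1.12 and 1.17 in litter 121, against the label. Values of litter 121 are therefore those of the extracts labelled Lats2-/- and Lats2+/+. Whether these extracts were exchanged was not tested, and the probe A_52_P425064 ran with the label in this litter too. The study presents a western blot of Lats2 protein as its check of the knockout in these MEFs. The legend of the blot names no litter or clone, and the blot was not analysed here. Means over litters are also given without litter 121 and, for the clusters, with its sign turned.

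Hox genes encode homeodomain transcription factors that give cells along the body axis their positional identity. They lie in clusters in which gene order follows the order of expression along the axis, low paralog numbers being expressed from the hindbrain and neck and high numbers towards the tail and the limb tip. Polycomb complexes hold Hox genes silent through methylation of histone H3 at lysine 27 where they are not used, retinoic acid switches on the anterior genes in the embryo, and fibroblasts in culture keep a Hox pattern that reflects their site of origin.

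The promoter sequences of the 4 members with the widest signal ranges over the extracts are shown, because the 3 HoxD genes among them varied together and Hoxa7 did not follow them. Each is the 250 bases before the start of the gene, 5′ to 3′ in the direction of the gene, from RefSeq on GRCm38.p6, a build other than the mm8 of the probe positions. Capitals mark AGGTCA or its reverse complement TGACCT, the half-site of retinoic acid receptors and several other nuclear receptors, chosen with the results known.
Hoxd4: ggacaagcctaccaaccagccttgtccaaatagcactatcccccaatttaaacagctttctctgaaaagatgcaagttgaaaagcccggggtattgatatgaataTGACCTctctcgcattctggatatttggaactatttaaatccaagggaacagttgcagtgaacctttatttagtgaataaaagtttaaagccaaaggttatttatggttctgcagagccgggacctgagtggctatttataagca
Hoxd8: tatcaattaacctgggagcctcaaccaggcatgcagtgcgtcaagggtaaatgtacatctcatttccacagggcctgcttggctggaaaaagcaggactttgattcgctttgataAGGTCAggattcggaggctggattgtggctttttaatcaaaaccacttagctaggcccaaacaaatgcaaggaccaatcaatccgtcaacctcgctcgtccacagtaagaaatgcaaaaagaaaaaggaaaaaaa
Hoxd9: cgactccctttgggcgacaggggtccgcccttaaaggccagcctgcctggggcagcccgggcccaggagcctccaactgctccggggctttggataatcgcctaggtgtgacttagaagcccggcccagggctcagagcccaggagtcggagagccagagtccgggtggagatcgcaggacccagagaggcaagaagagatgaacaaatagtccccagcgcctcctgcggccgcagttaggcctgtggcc
Hoxa7: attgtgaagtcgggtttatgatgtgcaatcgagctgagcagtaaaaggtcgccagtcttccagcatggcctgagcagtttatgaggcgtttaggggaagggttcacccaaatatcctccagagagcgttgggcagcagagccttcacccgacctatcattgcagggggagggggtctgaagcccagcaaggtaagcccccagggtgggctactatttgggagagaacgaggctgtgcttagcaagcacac
The Hoxd4 window was chr2:74721728-74721977, the Hoxd8 window chr2:74704365-74704614 and the Hoxd9 window chr2:74697513-74697762, all on the plus strand. The Hoxa7 window was chr6:52218574-52218823 on the minus strand.

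RefSeq windows were matched for 8 of the 9 members, all but Hoxa4. AGGTCA on either strand was present in 3 of the 8 windows, those of Hoxd3, Hoxd4 and Hoxd8, and in 14.0% of the 32851 windows of the same length over all genes. The match lay 145 bases before the start of Hoxd4 on the opposite strand and 135 bases before the start of Hoxd8 on the strand of the gene. In Hoxd3 it began 161 bases before the start, on the opposite strand. The Hoxd9 and Hoxa7 windows hold no such letters.
The windows also differed in CpG, the dinucleotide at which unmethylated islands form and to which Polycomb complexes are often recruited. Hoxd4 had 3 CpG in 250 bases, Hoxd8 6, Hoxd3 12 and Hoxd9 13, whereas Hoxa2 had 6, Hoxa7 7, Hoxa3 18 and Hoxa5 28. The median over all windows was 6, so only the Hoxd4 window lay below it, and only that of Hoxa5 was among the 7.61% of windows with the most CpG.

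The members were mostly dim. A probe was counted as detected in an extract if it was well above background, by the flag of the scanner software, on more than 50% of that extract's arrays. Of 78 pairs of a member probe and an extract, 21 were detected. Over the extracts, 8 of 13 member probes (61.5%) were detected at least once, against 61.6% of all gene probes, but 1 member probe was detected in all 6 extracts, against 19451 of 41174 gene probes.
The HoxD members were detected in 2 extracts only: 4 of 6 probes in the Lats2-/- extract of litter 116, 4 of 6 in the extract labelled Lats2+/+ of litter 121, and 0 in each of the other 4 extracts. The HoxA members were detected in every extract, at 2, 2 and 4 of 7 probes for Lats2-/- (litters 112, 116 and 121 in turn) and at 1, 2 and 2 for Lats2+/+. Over all gene probes the detected share was 51.6% to 57.8% in every extract.

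**Figure D1:**
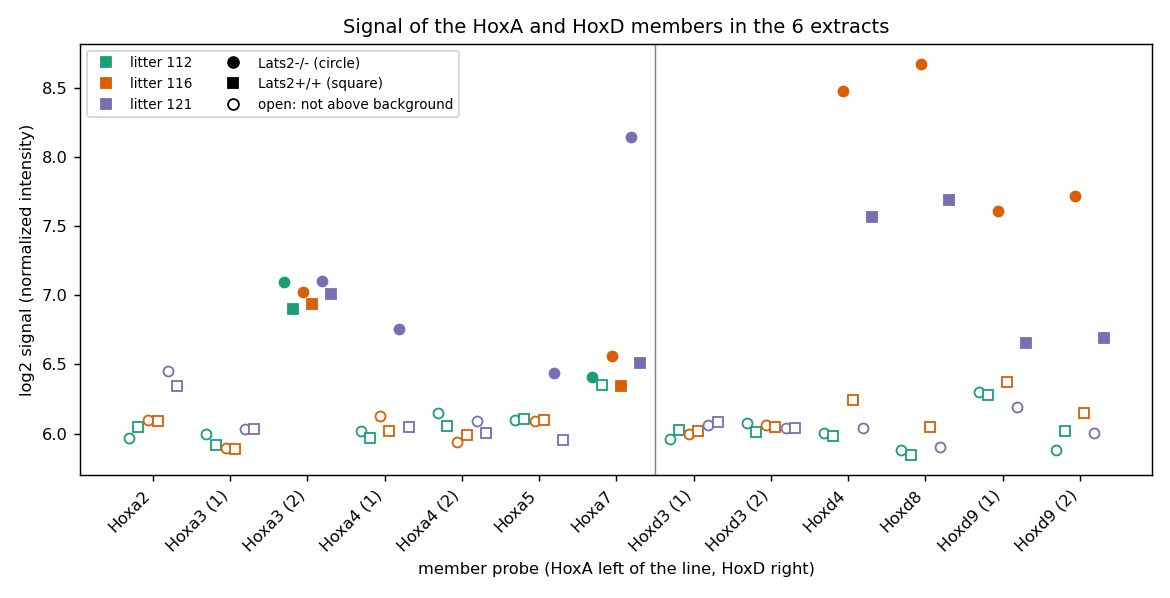
Log2 signal (normalized intensity, y axis) of the 13 member probes (x axis, HoxA left and HoxD right; numbers in brackets tell apart the probes of a gene in order of probe name) in the 6 extracts. Colours are litters, circles the extracts labelled Lats2-/-, squares those labelled Lats2+/+, and open symbols extracts in which the probe was not well above background. Hoxd4, Hoxd8 and Hoxd9 stand out in the Lats2-/- extract of litter 116 and the Lats2+/+ extract of litter 121, and Hoxa7 in the Lats2-/- extract of litter 121.

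Within HoxD, Hoxd8 varied most. Its probe (A_52_P485542) lies on chromosome 2 at 74507803 to 74507862 on the plus strand in mm8, and an annotation in that build was not used here to place the probes in exons. The log2 signals in litters 112, 116 and 121 were 5.88, 8.67 and 5.90 in the Lats2-/- extracts and 5.84, 6.05 and 7.69 in the Lats2+/+ extracts. The Lats2-/- extract of litter 116 and the Lats2+/+ extract of litter 121 were thus the high ones, at raw intensities of 395 and 199, while the other 4 extracts lay at 38.7 to 43.8 and were not well above background on any array. The log2 ratios were 0.04, 2.63 and -1.78. As bounds, Hoxd8 in litter 116 was at least 6.18-fold higher in Lats2-/-. In litter 121 the extract labelled Lats2+/+ was the brighter one, at least 3.24-fold.

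Hoxd4, which specifies upper cervical vertebrae and the posterior hindbrain and has a retinoic acid responsive enhancer in the embryo, showed the same order of extracts. Its probe (A_51_P260265, chromosome 2, 74529648 to 74529707, plus strand, mm8) had log2 signals of 6.00, 8.48 and 6.04 in the Lats2-/- extracts and of 5.98, 6.24 and 7.57 in the Lats2+/+ extracts. The same pair of extracts was high and the other 4 were not well above background. The log2 ratios were 0.02, 2.24 and -1.53, which bounds the difference at no less than 4.71-fold towards Lats2-/- in litter 116 and 2.85-fold towards the extract labelled Lats2+/+ in litter 121. Over the 2 arrays of litter 116 the ratio ranged from 2.11 to 2.37, and over the 4 arrays of litter 121 from -1.61 to -1.47. The arrays of a litter are repeats of the same extracts, so this range covers the measurement and not the cultures.

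Hoxd9, which acts in the lumbosacral spine and the proximal limb, was read by 2 probes on the plus strand of chromosome 2 in mm8. The probe A_52_P385584 (chromosome 2, 74500458 to 74500517) had log2 signals of 5.88, 7.72 and 6.00 in the Lats2-/- extracts and of 6.02, 6.15 and 6.69 in the Lats2+/+ extracts. Again the Lats2-/- extract of litter 116 and the extract labelled Lats2+/+ of litter 121 were the high ones, with bounds of at least 2.96-fold and at least 1.58-fold. The probe A_51_P430728 (74500115 to 74500174) gave 6.30, 7.61 and 6.20 in the Lats2-/- extracts and 6.28, 6.38 and 6.66 in the Lats2+/+ extracts. Its log2 ratios were 0.02, 1.23 and -0.46, in the same direction in litters 116 and 121 as those of the other probe (-0.14, 1.57 and -0.69), so both probes of the gene ordered the extracts alike at the top.

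Hoxd3, which shapes the atlas and axis vertebrae, was the exception among the HoxD members. Neither of its probes (A_51_P455040 and A_52_P209132) was detected in any extract, and their log2 ratios lay between -0.07 and 0.07. In the RefSeq annotation of GRCm38.p6 the start of Hoxd4 lies inside the span of Hoxd3, but the Hoxd3 probes did not show the signal that the Hoxd4 probe showed. At the brightness of these arrays a difference in Hoxd3 was not detectable.

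**Figure D2:**
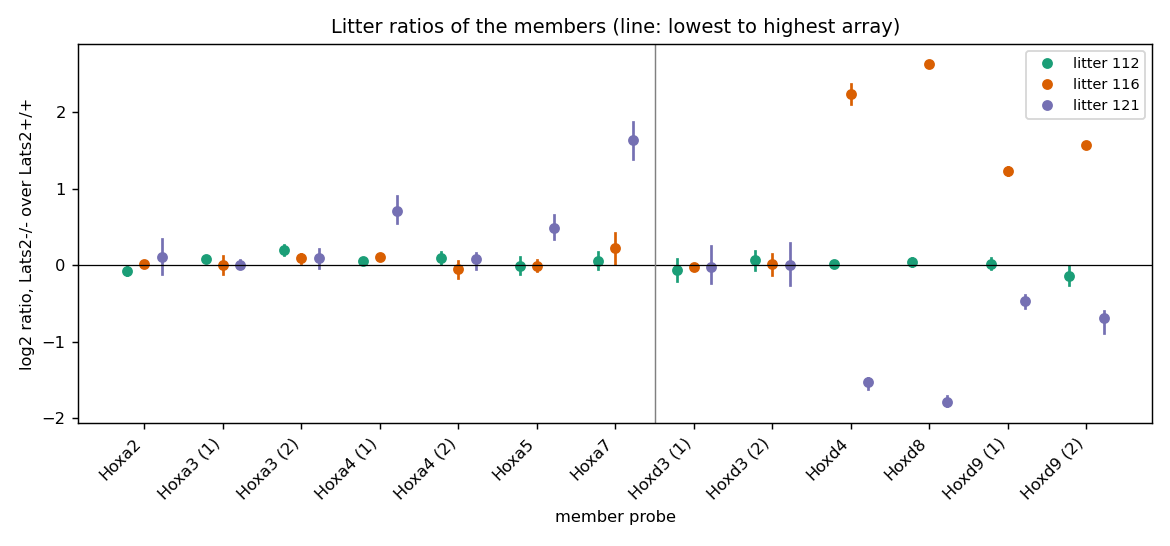
Log2 ratio of Lats2-/- over Lats2+/+ (y axis) of each member probe (x axis) in litters 112, 116 and 121, as points, with a line from the lowest to the highest array of the litter (2, 2 and 4 arrays). Hoxd4, Hoxd8 and both Hoxd9 probes lay above 1 in litter 116 and below 0 in litter 121, and Hoxa7 reached 1.63 in litter 121.

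Within HoxA, Hoxa7 had the widest range. Hoxa7, which patterns the thoracic axial skeleton together with its paralogs, had log2 signals at its probe (A_51_P509263, chromosome 6, 52145210 to 52145269, minus strand, mm8) of 6.41, 6.56 and 8.14 in the Lats2-/- extracts and of 6.35, 6.34 and 6.51 in the Lats2+/+ extracts. In each litter the Lats2-/- extract was the higher one, but only that of litter 121 stood apart from the other 5 extracts, and the genotypes overlapped, since the Lats2+/+ extract of litter 121 lay above the Lats2-/- extract of litter 112. The log2 ratios were 0.06, 0.22 and 1.63, the last a 3.1-fold difference between extracts that were both well above background on all 4 arrays. The mean log2 ratio was 0.64 ± 0.87 (SD, n = 3 litters), with a limma adjusted p of 0.758 over 22642 probes, and it was 0.14 without litter 121.

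Hoxa4 and Hoxa5 followed Hoxa7 at a lower signal. Hoxa5 is needed for the lung, trachea and the cervicothoracic spine, and Hoxa4 acts in the cervical spine. The Hoxa4 probe A_52_P443588 (chromosome 6, 52119380 to 52119439) had log2 signals of 6.02, 6.13 and 6.75 in the Lats2-/- extracts and of 5.97, 6.02 and 6.05 in the Lats2+/+ extracts. It was detected in the extract labelled Lats2-/- of litter 121 and in no other, where it was at least 1.61-fold higher than in the Lats2+/+ extract. The other Hoxa4 probe, A_52_P638382, was detected in no extract and so could show no ratio, and the level of Hoxa4 rests on 1 probe.
Hoxa5 (A_51_P310821, chromosome 6, 52131633 to 52131692) had log2 signals of 6.10, 6.09 and 6.44 in the Lats2-/- extracts and of 6.11, 6.10 and 5.95 in the Lats2+/+ extracts. It too was detected only in the extract labelled Lats2-/- of litter 121, at least 1.34-fold higher than in the Lats2+/+ extract. These probes were close to the floor, and the arrays of litter 121 ranged from 0.34 to 0.66 in log2 ratio for Hoxa5 and from 0.55 to 0.90 for Hoxa4.

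Hoxa3, required for the thymus and parathyroid glands, was the one member detected everywhere. Its probe A_52_P447935 (chromosome 6, 52099994 to 52100053) had log2 signals of 7.10, 7.02 and 7.10 in the Lats2-/- extracts and of 6.90, 6.93 and 7.01 in the Lats2+/+ extracts. The genotypes nearly touched without overlapping, and all 6 extracts lay within 0.20 of each other. The log2 ratios were 0.20, 0.09 and 0.09 and averaged 0.13 ± 0.06 (SD, n = 3 litters) and a limma adjusted p of 0.80, and the mean was 0.14 without litter 121. The other probe, A_51_P335169, was detected in no extract although it lies on the same strand in the neighbouring sequence (52099328 to 52099387), so the level of Hoxa3 rests on 1 probe.
Hoxa2, which sets the identity of the second branchial arch, was below the detection rule in all 6 extracts. In litter 121 it was well above background on 2 of 4 arrays of the Lats2-/- extract and 1 of 4 of the Lats2+/+ extract, and its log2 ratios were -0.08, 0.01 and 0.11.

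The clusters were then compared litter by litter, with 1 probe per gene, the brightest. The mean log2 ratio of the 5 HoxA genes was 0.04, 0.08 and 0.60 in litters 112, 116 and 121, and that of the 4 HoxD genes was 0.04, 1.53 and -0.94. In litter 112 no HoxD probe was detected in either extract, so its ratio near 0 says nothing of a difference between the clusters. In litter 116 HoxD was higher in Lats2-/- while HoxA was near 0, and in litter 121 HoxA was higher and HoxD lower in the extract labelled Lats2-/-. Of the 5 HoxA probes, 2 were detected in either extract of litter 112, 2 in litter 116 and 4 in litter 121. The HoxA means near 0 in litters 112 and 116 thus rest mostly on undetected probes. HoxA minus HoxD was 0.01, -1.44 and 1.55 and averaged 0.04 ± 1.5 (SD, n = 3 litters), and this average was -0.72 without litter 121, -0.99 with the sign of litter 121 turned and 0.78 without litter 116. Over litters, HoxA had a mean of 0.24 ± 0.31 and HoxD of 0.21 ± 1.24. Without litter 121 the means were 0.06 and 0.78, and with its sign turned they were -0.16 and 0.84, HoxD then being higher in Lats2-/- in both litters in which it was detected. An exact sign permutation over 3 litters cannot go below p = 0.25 (two-sided), and no p was computed for these scores.
With the processed signals of the scanner software, which subtract background with no offset, the HoxA minus HoxD values were 0.20, -3.71 and 5.55. With a smaller offset of 16 they were -0.02, -1.97 and 2.39. The sizes thus depend on how dim signals are treated, while HoxD was positive in litter 116 and negative in litter 121 under all 5 treatments of the signals.

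**Figure D3:**
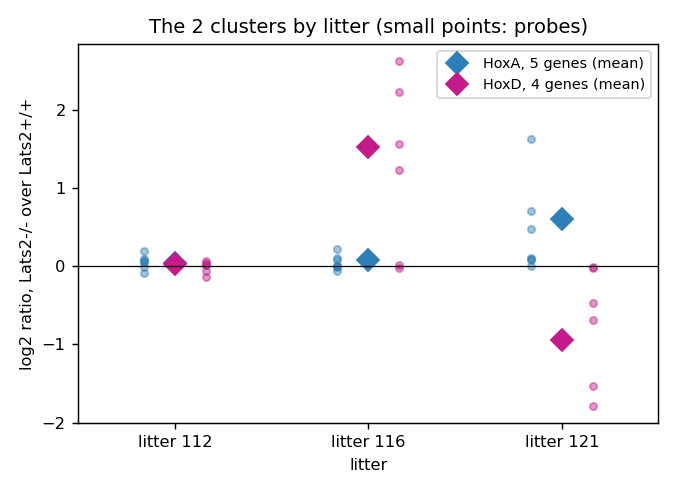
Mean log2 ratio of Lats2-/- over Lats2+/+ (y axis) of the 5 HoxA and the 4 HoxD genes (diamonds, 1 probe per gene) in each litter (x axis), with every member probe as a small point. HoxD was not detected in litter 112, lies above HoxA in litter 116 (1.53 against 0.08) and below it in litter 121 (-0.94 against 0.60).

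Set against all probes, the members were read as follows. In litter 116, 4 of the 6 member probes detected in either extract were at least 2-fold higher in Lats2-/-, the Hoxd4, Hoxd8 and both Hoxd9 probes, against 4.69% of the 22905 probes so detected, and 0 were 2-fold lower, against 3.33%. In litter 121, 1 of 8 member probes (Hoxa7) was at least 2-fold higher in the extract labelled Lats2-/-, against 3.86% of 24362 probes. In the same litter 2 of 8 (Hoxd4 and Hoxd8) were at least 2-fold lower, against 2.61%. In litter 112, 0 of 2 detected member probes were 2-fold higher, against 2.61% of 22268 probes, and 0 were 2-fold lower, against 1.27%.
Hoxd4 and Hoxd8 thus passed the 2-fold limit upwards in litter 116 and downwards in litter 121. Of 22151 probes detected in at least 1 extract of both litters, 165 (0.745%) met both limits, and 106 (0.479%) met the opposite pair, with 0 members among the latter.

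Across litters no member passed the test. Only the Hoxa3 probe A_52_P447935 and the Hoxa7 probe passed the filter on dim probes (detected in at least 2 of 3 extracts of either genotype), and 0 of these 2 had an adjusted p under 0.05, against 0 of 22642 probes (0%) over the array, where 1550 had an unadjusted p under 0.05. By the size used in the study, a 2-fold mean with an unadjusted p under 0.05, 0 of the 2 were called, against 0.835% of all probes tested. Without the filter, limma adjusted p-values of the 13 member probes lay between 0.833 and 0.986. For Hoxd8 the mean log2 ratio was 0.29 ± 2.22 (SD, n = 3 litters) and for Hoxd4 0.24 ± 1.89, so the spread between litters was several times the mean. Without litter 121 the means were 1.33 and 1.13. A p that misses the threshold does not show that the genotypes were alike.

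The neighbours in each cluster placed the members in a stretch. On HoxD, Hoxd1 and Hoxd3 were detected in no extract, Hoxd4, Hoxd8 and Hoxd9 in the pair of extracts named above, Hoxd10 only in the Lats2-/- extract of litter 116 (log2 ratio 0.68), and Hoxd11, Hoxd12 and Hoxd13 in none. Counted from the Hoxd1 probe, the detected stretch ran from the Hoxd4 probe at 36.1 kb to the Hoxd10 probe at 70.7 kb.
On HoxA, Hoxa6, between Hoxa5 and Hoxa7, was detected in 1 extract with log2 ratios from -0.05 to 0.02, and Hoxa9, Hoxa10, Hoxa11 and Hoxa13 were detected in none. Detection on HoxA therefore ended after Hoxa7, whose probe lies 53.0 kb from that of Hoxa2.

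**Figure D4:**
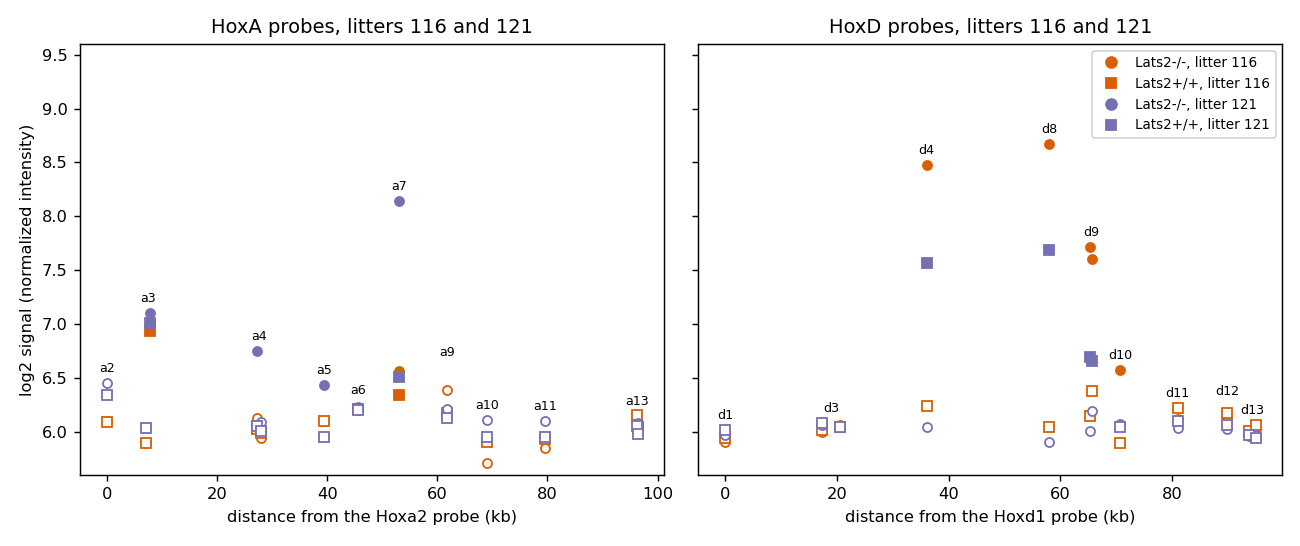
Log2 signal (normalized intensity, y axis) of HoxA probes from Hoxa2 to Hoxa13 (left) and of HoxD probes (right) by distance in kb from the Hoxa2 or Hoxd1 probe (x axis, mm8) in the 4 extracts of litters 116 and 121. Circles are extracts labelled Lats2-/-, squares Lats2+/+, and open symbols were not well above background. The HoxD signal is confined to Hoxd4 to Hoxd10, at 36.1 to 70.7 kb, in both high extracts, with Hoxd10 in 1 of them.

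The other Hox clusters did not share the HoxD order of extracts. Of 15 HoxB probes, 11, 1 and 10 were detected for Lats2-/- (litters 112, 116 and 121 in turn) and 4, 2 and 4 for Lats2+/+, so the extract with most HoxD signal had the fewest HoxB probes detected. Of 9 HoxC probes, 1 was detected in each extract. Among 29 Hox genes other than the members, 9 passed the filter, 0 passed the adjusted threshold and 1, Hoxb8, had an unadjusted p under 0.05, with log2 ratios of 1.92, 0.11 and 1.64, a mean of 1.22 ± 0.97 (SD, n = 3 litters; 1.01 without litter 121) and a limma adjusted p of 0.711. The median mean log2 ratio of these 9 genes was 0.65, against 0.01 over all probes that passed, and a gene could pass through the genotype in which it was high.
Of the TALE homeodomain proteins (Meis, Pbx and Pknox), which bind DNA together with Hox proteins, 7 of 7 measured genes were detected in all extracts and 0 were called in either direction, with a median of 0.15. Of the upstream regulators of Hox genes (Cdx factors, retinoic acid receptors and enzymes, Mll1, and subunits of both Polycomb complexes), 12 of 17 measured genes passed the filter and 0 were called in either direction, with a median of 0.06. Of 11 positional markers of limb and body wall, 6 passed the filter and 0 were called, with a median of 0.25, and Tbx4, Tbx5, Pitx1 and Hand2 were detected in no extract. Of the others, named after their values were seen, Lhx9 (A_51_P330481) had log2 ratios of -1.21, -0.52 and 3.18, Lhx2 of -0.85, -0.30 and 1.04, and Shox2 of -0.04, 2.22 and -0.26, with limma adjusted p-values of 0.937, 0.989 and 0.83. Tbx15 (A_52_P232802) and Emx2 (A_52_P455251) were highest in the pair of extracts in which HoxD was detected, the Lats2-/- extract of litter 116 and the extract labelled Lats2+/+ of litter 121. Tbx15 had log2 signals of 9.20 and 9.04 in this pair and of 8.18 to 8.54 in the other 4, and Emx2 had 8.06 and 7.75 against 6.34 to 7.20, with limma adjusted p-values of 0.984 and 0.908.

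Markers of cell type were read beside the members. All 8 fibroblast markers were detected in all 6 extracts. Their summed signal was 483000 in the Lats2-/- extract of litter 116 and 399000 in the extract labelled Lats2+/+ of litter 121, the pair in which HoxD was detected, against 180000 to 224000 in the other 4. At the brightest probe of each gene, 5 of the 8 markers (Col1a1, Col1a2, Col3a1, Dcn and Thy1) were higher in both extracts of this pair than in each of the other 4, and Fn1, Pdgfra and Vim were not. Col1a1, a chain of type I collagen, had log2 signals of 16.72 and 16.65 in the pair and of 13.97 to 15.59 in the others, and Vim, an intermediate filament protein, was lowest of all in the Lats2-/- extract of litter 116, at 15.18. Whether the makeup of the cultures had a part in the HoxD values was not tested, and in bulk RNA more cells of a type and more RNA per cell cannot be told apart.
In the extract labelled Lats2-/- of litter 121, the one with the highest Hoxa7, Pdgfra (A_51_P345649) had a log2 signal of 6.30, against 11.14 to 13.58 in the other 5 extracts, and Thy1 (A_52_P479249) had 11.00, against 13.95 to 16. Both are surface proteins by which fibroblasts are recognised, and these were the 2 of 8 markers that were lowest in that extract. Fn1, fibronectin, was at its highest there, at 13.96, and Vim (15.89) and Col1a1 (15.52) lay within the range of the other extracts. In that extract the epithelial list summed to 344, with Cdh1 its 1 detected gene of 4, against 262 to 325 elsewhere. The endothelial list summed to 332 there, with Kdr and Tek detected, against 278 to 292. Kdr was detected in that extract alone, whereas Tek was detected in 5 of the 6 extracts. Blood markers summed to 289 to 345 over the extracts and neural markers to 827 to 3540, the highest in the Lats2+/+ extract of litter 116. Skeletal muscle markers ranged from 582 to 10500, with Acta1 the 1 detected gene of 4 and Myod1, Myog and Des detected in no extract. The part of other cell types in the HoxA values was not tested.

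**Figure D5:**
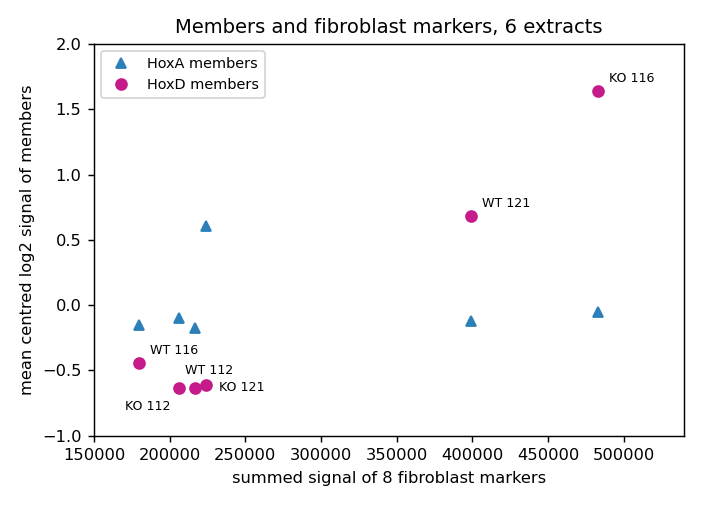
Mean log2 signal of the detected HoxA members (triangles, 4 genes) and HoxD members (circles, 3 genes), each centred on its mean over extracts (y axis), against the summed signal of 8 fibroblast markers (x axis), for 6 extracts, with KO standing for Lats2-/- and WT for Lats2+/+. HoxD was highest in the pair of extracts with the highest marker sums (1.64 and 0.68), while HoxA was highest (0.60) in the extract labelled Lats2-/- of litter 121, whose sum was 224000.

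Some members of each cluster varied together over the 6 extracts. Pearson's r with the Hoxd8 probe was 0.999 for Hoxd4 and 0.972 and 0.939 for the Hoxd9 probes, and r between Hoxa7 and Hoxa4 (A_52_P443588) was 0.996 and between Hoxa7 and Hoxa5 0.901. The Hoxa3 probe followed them less, with r of 0.591 with Hoxa7, 0.599 with Hoxa4 and 0.448 with Hoxa5, and Hoxa2 and Hoxd3 were detected in no extract. Between clusters it was -0.20 for Hoxd8 and Hoxa7. These values describe 6 extracts that share arrays in pairs, and each rests on 1 or 2 high extracts.
The genes outside the clusters whose signal was most like that of the HoxD members, among 2009 probes with a log2 range of at least 2, were P2ry14 (r = 0.996), Dchs1 (0.992), Ptges (0.990), Itga11 (0.988) and Cxcl10 (0.985), and 26 probes had r above 0.9. For example Ptges, prostaglandin E synthase, had log2 signals of 6.36, 9.65 and 6.25 in the Lats2-/- extracts and of 6.09, 6.25 and 8.63 in the Lats2+/+ extracts, high in the same pair as Hoxd8. The genes most like the HoxA members were Ms4a4b (r = 0.997), Lyz, Col24a1, Cxadr and Palmd (each 0.995), and 214 probes had r above 0.9. Ms4a4b had a log2 signal of 8.20 in the extract labelled Lats2-/- of litter 121 and of 6.03 to 6.22 in the other 5. The HoxA profile was thus one high extract, a pattern that many probes had, and the HoxD profile was a pair of them.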

How the data were processed

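Intensities of 8 Agilent 2-colour arrays were analysed. The authors extracted the scans with Agilent Feature Extraction (10.5.1.1 per the labels, 10.7.3.1 per the file headers) on a design placed on mm8. The deposited scanner files hold the mean intensity and median background intensity of each spot in both channels, not normalized, with processed intensities and flags. The deposited value table holds log10 ratios, which matched the scanner log10 ratios turned to Lats2-/- over Lats2+/+ within 0.00500. The direction follows the dyes in the labels.

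Mean intensities were corrected with normexp (offset 50), control spots removed, 860 outlier gene spots over the arrays left out, and log2 ratios normalized by loess in limma 3.58.1 under R 4.3.3. Log2 signals per extract were taken after Aquantile. No gene spot was saturated. Repeat spots were averaged, then arrays within a litter, so n = 3 litters. The genotypes were paired by litter and by array, as the clone names and channels in the labels give. The number shared by both clone names was read as the litter, since the study's controls were littermates. Limma's moderated test against 0, two-sided and Benjamini-Hochberg adjusted over 22642 kept probes, was the main test. The cluster means used the brightest probe of a gene. Bounds set the bright mean against the lowest signal well above background, or the dim probe's own where higher. Means are given ± SD. The number of arrays limits the precision. Named genes were all members, Lats2, listed genes with an unadjusted p under 0.05, and the 5 genes most like each cluster's profile. Hoxd10, Hoxa6, limb genes and single cell type markers were named after their values were seen. The members and lists were chosen with earlier results of these data known. Alternatives were the offset, processed signals, the value table, median centring, no pairing, slide as a random block, the filter, each litter left out, and the methods' t-test. Turning the sign of litter 121 was added after seeing the data.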

Additional observations from a re-analysis of the deposited data

Results flagged for a closer look

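4 HoxD probes had opposite signs in litters 116 and 121 on every array: the log2 ratio of Lats2-/- over Lats2+/+ was above 0 on both arrays of litter 116 and below 0 on all 4 arrays of litter 121. The difference between the litters (116 minus 121) was 4.41 for Hoxd8, 3.76 for Hoxd4, 2.26 for the Hoxd9 probe A_52_P385584 and 1.69 for the Hoxd9 probe A_51_P430728. The difference was not tested, since each litter is 1 pair of extracts. Its size depends on the offset, because the dimmer extract of a litter was not well above background: for Hoxd8 the log2 ratios of 2.63 and -1.78 were 6.62 and -5.88 with processed signals. For Hoxd8, Hoxd4 and the Hoxd9 probe A_52_P385584 each litter gives only a bound, and for Hoxd8 these were at least 6.18-fold towards Lats2-/- in litter 116 and at least 3.24-fold towards the extract labelled Lats2+/+ in litter 121. No bound was set for the Hoxd9 probe A_51_P430728, whose dimmer extract was well above background on 1 array in each of these litters. That extract was still below the detection rule, so the size of these ratios is uncertain too. No member probe had a single array that stood apart over the 8 arrays by Dixon's test. This says little of single arrays, since arrays of a litter repeat the same extracts and move together.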

How the results depend on the processing

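The count of probes past the adjusted threshold was 0 under 12 of 13 alternatives, including the fit with no pairing of the litters (no replicate block), and 717 (371 higher, 346 lower) with slide as a random block over single arrays, which counts arrays of 1 litter as replicates. Under that block the limma adjusted p was 0.132 for Hoxa7 and 0.516 for Hoxa3. The count at 2-fold with an unadjusted p under 0.05 was 189 (144 higher, 45 lower). It was 305 with offset 16, 551 with processed signals, 545 with the value table, 441 with slide as a random block, 112 with no replicate block and 71 with the methods' t-test, and it ranged from 260 to 373 with 1 litter left out (352 without litter 112, 373 without litter 121). The mean log2 ratios of Hoxa3 and Hoxa7 did not pass the adjusted threshold in the 10 alternatives run for each. Both stayed above 0, except that Hoxa7 turned to -0.45 (limma adjusted p 0.999) with the sign of litter 121 turned. That alternative was chosen after seeing the data. The Hoxa7 mean was 1.38 with processed signals and with the value table, past the 2-fold size, with a limma adjusted p of 0.736 in both. The mean of HoxA minus HoxD (0.04) was 0.68 with processed signals, 0.67 with the value table, 0.78 without litter 116, -0.72 without litter 121 and -0.99 with litter 121 turned, all within the spread between litters. Cases of a member probe at least 2-fold in a litter numbered 7, from 5 distinct probes, and 11 with processed signals and with the value table. Detection was 21 pairs, 21 if every array was required and 27 if 1 array was enough. The causes of these shifts were not tested. Most members lay near background, which limits what a ratio near 0 can show.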
